A study of Mus musculus with 16 samples.

Results

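The genes described here are 37 named genes of the blood vessel wall and of vessel growth, out of 23224 genes with estimated counts in RIP1Tag2 tumours. They were chosen by symbol with earlier results of these data known, and no cutoff on level was used. All 37 were found in the table, and all 37 passed the filter on low counts. They comprise 21 genes expressed throughout endothelium (the pan-endothelial genes), 5 genes of sprouting endothelium (Aplnr, Apln, Esm1, Angpt2 and Dll4), 4 ligands of the VEGF family, 5 VEGF receptors and co-receptors, and Angpt1 and Notch4. RIP1Tag2 mice express the SV40 T antigens from the rat insulin promoter, so tumours arise from pancreatic beta cells and every group carries the transgene. The B6 control group held 7 tumour libraries from C57Bl/6 mice and the C3H control group held 4 from C3HeB/Fe mice, both from animals left untreated or given saline, which the labels do not separate by library. The B6 MK801 group held 5 libraries from C57Bl/6 mice given MK801, an open-channel blocker of the NMDA type of glutamate receptor, by intraperitoneal injection at 1 mg/kg once daily for 3 days. All mice were 14 to 16 weeks old. Whether each library is a different mouse is not stated in the labels, and p-values therefore rest on a spread between libraries that may be partly technical.

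Endothelial cells line every vessel and hold together through VE-cadherin and other junction proteins. Vessel growth is driven mainly by VEGF-A, released by hypoxic or oncogene-driven tissue and read by the receptor KDR on endothelium, while FLT1 binds the same ligand with little signalling of its own. VEGF-stimulated tip cells lead each sprout and carry DLL4, ESM1, ANGPT2 and apelin, DLL4 restrains neighbouring cells through Notch, and the balance of ANGPT1 and ANGPT2 on the receptor TIE2 (Tek) sets whether vessels are quiet or remodelling. RIP1Tag2 tumours are a standard model of this angiogenic switch.

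Many endothelial promoters are read by ETS transcription factors such as ERG, itself among the 37 genes, and promoter sequences are therefore shown for 5 genes of different role. They are the receptors Kdr and Tie1 and the guidance receptor Robo4, which mark endothelium in general, and Esm1 and Apln of the sprouting group. Windows run from 250 bases before to 50 bases after the RefSeq transcript start on GRCm38.p6, are written 5′ to 3′ on the gene's strand, and carry in capitals each match to CAGGAA or CCGGAA on either strand (TTCCTG or TTCCGG when read on the reverse). Kdr lies at chr5:75978406-75978705 on the minus strand, Tie1 at chr4:118489800-118490099 on the minus strand, Robo4 at chr9:37401722-37402021 on the plus strand, Esm1 at chr13:113209409-113209708 on the plus strand and Apln at chrX:48034804-48035103 on the minus strand.
Kdr: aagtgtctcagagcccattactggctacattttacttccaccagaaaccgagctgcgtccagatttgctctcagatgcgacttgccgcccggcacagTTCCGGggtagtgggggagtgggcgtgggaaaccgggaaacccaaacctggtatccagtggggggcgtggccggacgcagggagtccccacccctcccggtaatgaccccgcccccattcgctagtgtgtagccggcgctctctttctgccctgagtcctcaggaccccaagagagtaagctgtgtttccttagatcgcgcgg
Tie1: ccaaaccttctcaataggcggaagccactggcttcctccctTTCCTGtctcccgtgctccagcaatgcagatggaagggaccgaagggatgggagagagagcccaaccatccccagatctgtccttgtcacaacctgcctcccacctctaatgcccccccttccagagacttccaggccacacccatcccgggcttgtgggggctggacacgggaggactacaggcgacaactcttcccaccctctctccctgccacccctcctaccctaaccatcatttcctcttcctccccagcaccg
Robo4: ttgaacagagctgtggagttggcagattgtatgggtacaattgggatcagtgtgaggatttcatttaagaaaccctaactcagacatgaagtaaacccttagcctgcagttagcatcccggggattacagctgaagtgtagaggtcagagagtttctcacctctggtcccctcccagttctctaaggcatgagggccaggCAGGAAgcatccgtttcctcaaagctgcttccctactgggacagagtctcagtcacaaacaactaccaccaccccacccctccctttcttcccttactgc
Esm1: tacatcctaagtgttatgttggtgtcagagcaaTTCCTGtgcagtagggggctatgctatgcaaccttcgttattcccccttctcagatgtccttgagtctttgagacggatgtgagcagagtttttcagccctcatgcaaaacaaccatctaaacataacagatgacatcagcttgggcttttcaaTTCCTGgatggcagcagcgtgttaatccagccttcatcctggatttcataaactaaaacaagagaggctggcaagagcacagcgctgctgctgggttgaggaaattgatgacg
Apln: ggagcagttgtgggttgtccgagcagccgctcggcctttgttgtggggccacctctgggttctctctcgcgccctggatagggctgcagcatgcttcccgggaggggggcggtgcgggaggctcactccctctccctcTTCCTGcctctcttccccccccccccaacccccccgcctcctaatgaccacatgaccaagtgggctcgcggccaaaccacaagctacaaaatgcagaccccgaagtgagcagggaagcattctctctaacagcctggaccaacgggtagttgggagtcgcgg
The Esm1 window held 2 matches and each of the other windows 1, with Kdr the only one of the 28 to hold CCGGAA. The RefSeq table gave 28 windows for 22 of the 37 genes, with more than 1 window for Egfl7, Erg, Pgf and Vegfa and none for Aplnr. All 5 genes shown held a match, whereas Dll4, Flt1, Flt4, Nrp1, Pgf, Cldn5 and Vegfb held none in any window. CAGGAA was present in 15 of the 28 windows (53.6%), against 30.6% of all 32851 windows in the table. CCGGAA was present in 1 of 28 (3.57%), against 14.9% of all windows, and either motif in 16 of 28 (57.1%), against 41.4%. The 2 motifs share their last 4 letters, and a position on a strand can start only 1 of them. A match is a run of letters and not a measured binding site, and no binding was measured in this series.

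Levels are given as CPM, estimated counts per 1000000 counts of the scaled library, and levels of different genes are compared as CPM per kilobase of the longest annotated transcript. In B6 controls Vegfa stood highest at 50.5 CPM per kb, followed by Esm1, the secreted proteoglycan of tip cells, at 38.8 CPM per kb, and Pecam1, an adhesion molecule of endothelial contacts, at 38.0 CPM per kb. Cd34 (29.5 CPM per kb), Plvap (28.4 CPM per kb) and the VEGF co-receptor Nrp1 (27.5 CPM per kb) came next. Aplnr, the apelin receptor, stood at 9.91 CPM per kb, near its ligand Apln at 8.28 CPM per kb. The lowest were Sox17 at 0.210 CPM per kb, Notch4 at 0.718 CPM per kb and Angpt1 at 0.719 CPM per kb. Neighbours in this order mostly lay within each other's spread, since between the lowest and the highest B6 control library the level of a gene differed from 1.63-fold for Egfl7 to 30.1-fold for Plvap.

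The 8 endothelial markers set for a check of the label (Pecam1, Cdh5, Tie1, Tek, Erg, Esam, Cldn5 and Emcn) were detected in every library, and the 21 pan-endothelial genes summed to between 402.5 and 1181 CPM. Beta cell markers summed to between 15910 and 114000 CPM in the same libraries, so the endothelial genes were a minor share of the tumour RNA. The lowest beta cell sum, 15910 CPM, was that of B6 control 1, against 51430 to 85470 CPM in the other B6 controls. Fibroblast and macrophage markers in B6 control 1 summed to 860.5 and 1668 CPM, the highest of the B6 controls. Acinar markers, of the exocrine pancreas, summed to between 12.67 CPM in C3H control 3 and 54310 CPM in B6 control 2. They were at 46150 CPM in B6 control 4 but 50.56 CPM in B6 control 6. Some libraries thus held much exocrine RNA, and its part in the endothelial levels was not tested. In bulk tumour RNA, fewer endothelial cells and less RNA of a gene per endothelial cell cannot be told apart. Library totals lay between 38561334 and 57013815 estimated counts. Dlgap1 averaged 29.8 CPM in the B6 controls (SD 5.70, n = 7) and 33.7 CPM in the MK801 libraries (SD 6.61, n = 5), but 0.535 CPM in the C3H controls (SD 0.354, n = 4). These values describe the strain groups and are no independent check of the labels. Libraries within a group differed by base composition: the rank correlation across 15836 genes between a library's departures and transcript GC content ran from -0.457 in B6 control 7 to 0.589 in B6 control 5.

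The endothelial genes carried this base-composition pattern inside each group. Departures were taken as log2 CPM minus the mean of the gene over all libraries. Across the 37 genes, their Spearman correlation with GC content was 0.742 in B6 control 5 and 0.740 in C3H control 1. It was -0.722 in B6 control 6 and -0.641 in B6 control 7. The points of each correlation share a library, and the values are a description. Plvap, which forms the diaphragms of fenestrated endothelium and has 60.6% GC, was at 167.0 CPM in B6 control 5 and 5.546 CPM in B6 control 6, around a median of 58.1 CPM over the 7 B6 controls. Ptprb, the phosphatase that acts on TIE2 and has 47.6% GC, was lowest of all libraries in B6 control 5 at 19.5 CPM and highest in B6 control 7 at 137.5 CPM. The 2 genes thus stood at opposite ends in the same library.

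The pan-endothelial genes were split at their median GC content of 53.7% into 10 with more (53.9% to 60.9%, among them Tie1, Eng, Plvap and Robo4) and 10 with less (40.7% to 53.6%, among them Pecam1, Cdh5, Emcn and Tek), with Esam at the median. The mean log2 CPM of the GC-rich set minus that of the GC-poor set was 0.47 in B6 control 5 and 0.21 in C3H control 1, and between -1.87 and -0.53 in the other 14 libraries. Sox7, a SOX-F transcription factor of endothelium, followed the pan-endothelial level most closely across the B6 controls, with an SD of 0.195 for its log2 difference from that level. Esam (SD 0.257) and Cdh5 (SD 0.309), which code for junction proteins, came next, all 3 with a GC content between 51.0% and 53.7%. The widest were Notch4 (SD 1.46), Plvap (SD 1.31) and the lymphatic growth factor Vegfc (SD 1.31). Whether base composition sets the differences between libraries was not tested.

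**Figure D1:**
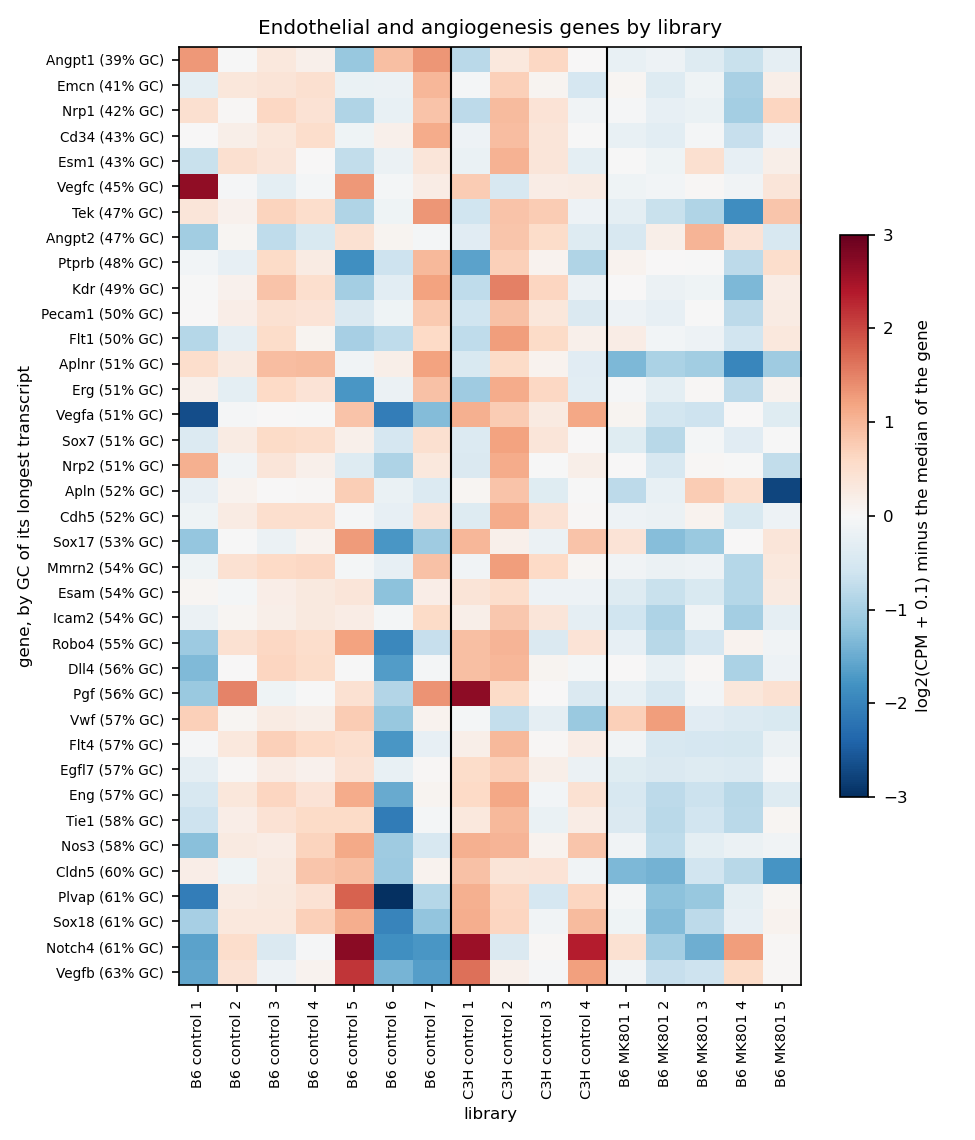
Level of each of the 37 genes in each of the 16 libraries, as log2(CPM + 0.1) minus the median of the gene, with genes (rows) ordered from low to high transcript GC content and libraries (columns) by group. B6 control 5 and C3H control 1 run from blue to red down the rows, and B6 controls 6 and 7 run from red to blue. Their rank correlations with GC content, taken on departures from the mean of the gene, were 0.742, 0.740, -0.722 and -0.641.

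The strain comparison asked whether endothelial and angiogenic genes differed between C3H and B6 control tumours. None of the 37 genes passed an adjusted p of 0.05 (edgeR quasi-likelihood test, Benjamini-Hochberg over 16084 genes; C3H against B6), where 2.4% of all genes tested did in either direction. DESeq2 and limma-voom also called 0 of the 37, against 4.95% and 2.26% of all genes in either direction. At an unadjusted p under 0.05 there were 2 of the 37, Vegfa and Aplnr, against 13.8% of all genes. No gene of the 37 had C3H libraries that stood wholly apart from the B6 libraries, against 3.87% of all genes. The fold changes were above 0 for 27 genes and below 0 for 10, with a median log2 fold change of 0.21, against -0.03 over all genes. Without C3H control 2, in which Kdr, Pecam1, Cdh5, Flt1 and Esm1 were each at their highest of all libraries, the median was -0.03 and 20 genes were below 0.

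Vegfa, the main VEGF of tumour angiogenesis, was at 34.4 CPM in the lowest, 213.0 CPM in the median and 395.2 CPM in the highest B6 control. In the C3H controls it was at 459.5, 370.6, 261.4 and 489.7 CPM in libraries 1 to 4. All 4 C3H libraries lay above the B6 median, and 1 B6 library, control 5, lay within the C3H range. The Vegfa transcript has 50.9% GC, below the 53.7% median of the pan-endothelial genes. Vegfa was lowest in B6 controls 1, 6 and 7 (34.4, 51.7 and 88.0 CPM), whose GC trends were -0.325, -0.389 and -0.457. B6 control 5 and C3H controls 1 and 4, where Vegfa was high, had GC trends of 0.589, 0.457 and 0.322. The part of base composition in these levels was not tested. The log2 fold change was 1.18 ± 0.477 (SE), with an edgeR adjusted p of 0.27, and over the alternatives it ranged from 0.97 to 1.56 with an adjusted p of 0.0773 to 0.526. After MK801 Vegfa was at 229.6, 148.4, 141.3, 220.3 and 170.7 CPM, inside the B6 range (log2 fold change 0.06 ± 0.456, edgeR adjusted p = 0.986).

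Like Vegfa, which differed 11.5-fold between the lowest and the highest B6 control, the other VEGF ligands varied more between libraries than between groups. Vegfb, the ligand of FLT1, was between 3.866 and 55.08 CPM in B6 controls, around a median of 11.1, and at 39.5, 13.8, 12.1 and 29.4 CPM in C3H controls (log2 fold change 0.61 ± 0.629, edgeR adjusted p = 0.721). Pgf, placental growth factor and also a ligand of FLT1, was at 64.4 CPM in C3H control 1 and at 14.8, 10.1 and 7.35 CPM in the others, against 4.58 to 28.1 CPM in B6 controls (log2 fold change 0.81 ± 0.573, edgeR adjusted p = 0.585). Without C3H control 1 the Pgf value turned to -0.36. Vegfc, which acts through FLT4, was at 13.8 CPM in B6 control 1 and between 1.69 and 5.36 CPM in the other B6 libraries, and its C3H libraries, at 1.48 to 3.62 CPM, overlapped them, with C3H control 2 below every B6 control (log2 fold change -0.74 ± 0.543, edgeR adjusted p = 0.605). In each of these 3 genes 1 library held the top of its group.

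**Figure D2:**
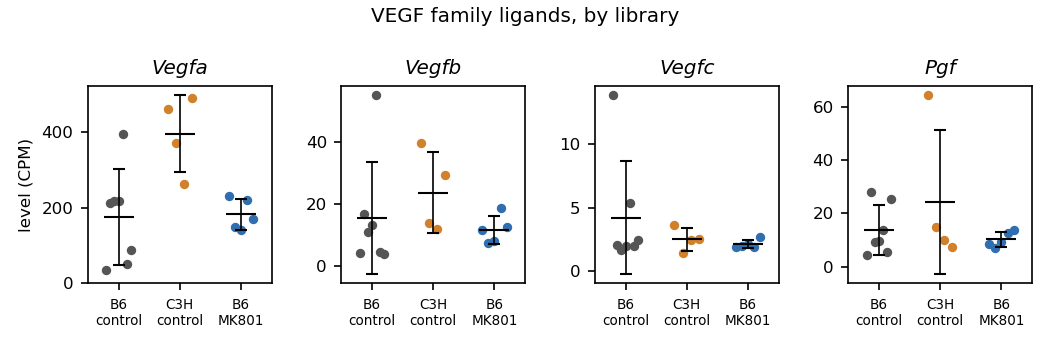
Levels of the 4 VEGF family ligands in CPM, with a point for each library and bars for the mean ± SD of 7 B6 controls, 4 C3H controls and 5 MK801 libraries. The C3H controls sit between 261.4 and 489.7 CPM for Vegfa, while 1 library stands above its group for Vegfb (B6 control 5), Vegfc (B6 control 1) and Pgf (C3H control 1).

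The receptors did not pass the test between the strains. Kdr, the main signalling receptor of VEGF-A, was between 35.2 and 167.2 CPM in B6 controls around a median of 79.3, and at 42.4, 205.6, 113.0 and 63.7 CPM in C3H controls (log2 fold change 0.21 ± 0.433, edgeR adjusted p = 0.865). Flt1 was at 21.5, 88.05, 54.8 and 40.9 CPM in C3H controls against 18.3 to 55.8 CPM in B6 controls (log2 fold change 0.59 ± 0.363, edgeR adjusted p = 0.522). For both genes C3H control 1 lay near the bottom of the B6 range and C3H control 2 above its top. Flt4, the VEGF-C receptor, and the co-receptors Nrp1 and Nrp2 had log2 fold changes of 0.23, -0.02 and 0.14, each within its standard error.

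Among the 21 pan-endothelial genes the strain fold changes lay between -0.73 for Vwf, the clotting factor of endothelial granules, and 0.70 for Sox17, a SOX-F factor of arteries, on the log2 scale. The smallest adjusted p was that of Vwf (edgeR, 0.453). Of the junction and surface genes Pecam1 gave -0.06, Cdh5 0.19, Esam 0.14, Emcn -0.15, Cldn5 0.16, Icam2 0.15 and Cd34 -0.03. Tie1, Tek and Ptprb of the angiopoietin system gave 0.33, -0.07 and -0.23, and Erg, Sox7 and Sox18 gave 0.16, 0.22 and 0.63. Eng, Plvap, Robo4, Nos3, Egfl7 and Mmrn2 gave 0.32, 0.35, 0.39, 0.66, 0.29 and 0.20. For the sprouting genes the log2 fold changes were -0.60 ± 0.282 for Aplnr (edgeR adjusted p = 0.361), 0.16 ± 0.447 for Apln, 0.31 ± 0.276 for Esm1, 0.43 ± 0.341 for Angpt2 and 0.62 ± 0.378 for Dll4. Angpt1, the TIE2 agonist made largely by mural cells, gave -0.50 ± 0.419, and the endothelial Notch receptor Notch4 gave 1.09 ± 0.875. Notch4 was at 18.8 and 16.1 CPM in C3H controls 1 and 4 and at 2.24 and 3.16 CPM in C3H controls 2 and 3, so its 4 libraries formed a high and a low pair. C3H controls 1 and 4 are also the C3H libraries with the higher GC trends (0.457 and 0.322), and Notch4 has 61.2% GC. The part of base composition in this split was not tested.

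MK801 was compared with the same 7 B6 controls, so the 2 comparisons share those libraries. Aplnr, the G protein-coupled receptor of apelin on venous and sprouting endothelium, fell, and it was the only one of the 37 genes to pass the test. In B6 controls Aplnr was at 21.95 CPM in the lowest, 34.1 CPM in the median and 54.6 CPM in the highest library. After MK801 it was at 9.31, 12.2, 11.5, 6.05 and 11.3 CPM in libraries 1 to 5. All 5 treated libraries lay below every B6 control, and the gap ran from 12.2 to 21.95 CPM. The mean fell from 36.65 ± 11.9 CPM (SD, n = 7) to 10.1 ± 2.50 CPM (SD, n = 5), a log2 fold change of -1.86 ± 0.275 (SE), or 0.275-fold, with an edgeR adjusted p of 0.00928. Aplnr had the 8th smallest p of the 16084 genes. With the replicate number as a block the log2 fold change was -1.81 and the adjusted p 0.0781, past the threshold no longer. In C3H controls Aplnr was at 17.3, 35.3, 25.6 and 18.75 CPM, which overlapped the B6 controls.

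Of the 37 genes 1 was called lower after MK801, against 0.473% of all genes, and 0 were called higher, against 0.149% of all genes. The 37 were chosen with earlier results of these data known, so these shares are a description. Groups stood wholly apart in the lower direction for Aplnr alone, 1 of 37, against 1.14% of all genes. At an unadjusted p under 0.05, 7 of the 37 were lower, against 8.5% of all genes, and 0 were higher, against 3.5%. DESeq2 called 3 of the 37 lower, against 3.34% of all genes, and limma-voom called 1, Aplnr, against 0.504%. The fold changes were nevertheless below 0 for 32 of the 37 genes, with a median log2 fold change of -0.43, against -0.03 and 53.7% below 0 over all genes.

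The 6 genes other than Aplnr at an unadjusted p under 0.05 did not pass the adjusted threshold. Cldn5, the claudin of endothelial tight junctions, was at 1.48 to 6.18 CPM in B6 controls around a median of 3.78, and at 1.23, 1.17, 2.17, 1.79 and 0.886 CPM after MK801. Its groups met only through B6 control 6, the lowest control at 1.48 CPM. The log2 fold change was -1.46 ± 0.350 (SE), with an edgeR adjusted p of 0.0734, and without B6 control 6 it was -1.60 with an adjusted p of 0.0364. With any other single library left out it was not called (adjusted p = 0.0676 to 0.183), nor with the replicate block (0.111) or with the 2 groups alone (0.171). Icam2, an adhesion molecule for leukocytes, was at 6.64 to 11.2 CPM in B6 controls around a median of 8.55, and at 4.96, 3.93, 7.001, 3.69 and 6.24 CPM after MK801. Only library 3 of the treated group reached into the control range (log2 fold change -0.72 ± 0.234, edgeR adjusted p = 0.176). Cd34, a sialomucin also found on fibroblasts and blood progenitors, was at 64.3 to 150.7 CPM in B6 controls around a median of 79.2, and at 60.0, 56.4, 67.4, 43.7 and 63.0 CPM after MK801, overlapping through library 3 (log2 fold change -0.64 ± 0.223, edgeR adjusted p = 0.215). Eng, the co-receptor for BMP9 and TGF-beta, was at 23.55, 19.1, 20.9, 18.5 and 25.2 CPM after MK801, within the B6 range of 11.6 to 71.5 CPM (-0.89 ± 0.337 as log2 fold change, edgeR adjusted p = 0.263). Angpt1 was at 1.70, 1.79, 1.50, 1.22 and 1.63 CPM after MK801 against 0.841 to 5.12 CPM in B6 controls (log2 fold change -0.97 ± 0.395, edgeR adjusted p = 0.32). Egfl7, a secreted matrix protein of endothelium, was at 28.7, 27.1, 28.2, 27.4 and 35.7 CPM against 30.2 to 49.2 CPM (-0.39 ± 0.167 as log2 fold change, edgeR adjusted p = 0.359), and library 5 alone reached into the control range.

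Of the 21 pan-endothelial genes 20 had a log2 fold change below 0 after MK801, with a median of -0.49, and 0 passed the test. At an unadjusted p under 0.05 there were 5 of them, where 8.5% of all genes were lower, and with a library left out there were 4 to 8. DESeq2 called Cldn5 and Icam2 (adjusted p = 0.00221 and 0.0353), against 3.34% of all genes, whereas limma-voom called 0. The junction and surface genes Pecam1, Cdh5, Esam and Emcn gave -0.39, -0.37, -0.42 and -0.49 on the log2 scale. The angiopoietin receptors Tie1 and Tek gave -0.54 and -0.73, and Ptprb, the phosphatase of TIE2, gave -0.05. The transcription factors Erg, Sox7, Sox17 and Sox18 gave -0.32, -0.52, -0.07 and -0.49. Plvap, the guidance receptor Robo4, the nitric oxide synthase Nos3 and the matrix glycoprotein Mmrn2 gave -0.64, -0.48, -0.43 and -0.51. Vwf alone was above 0, at 0.10, with MK801 library 2 at 19.0 CPM and library 1 at 13.0 CPM, and the other 3 between 5.73 and 6.25 CPM. None of these 16 genes had an edgeR adjusted p below 0.509. For Cdh5 the approximate 95% interval of the log2 fold change ran from -0.80 to 0.07, and for Pecam1 from -0.90 to 0.13. Each interval thus held both 0 and a fall of more than 0.5 on that scale.

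None of the other sprouting genes passed the test after MK801. Esm1 was at 80.0, 72.9, 111.2, 67.8 and 90.9 CPM after MK801, inside the B6 range of 48.1 to 112.4 CPM around a median of 80.4 (log2 fold change 0.06 ± 0.260, 95% interval -0.45 to 0.57, edgeR adjusted p = 0.981). Angpt2, the TIE2 ligand of remodelling vessels, was at 21.4, 33.8, 60.8, 40.05 and 21.35 CPM, against 14.5 to 41.2 CPM around a median of 28.85 (log2 fold change 0.41 ± 0.320, 95% interval -0.22 to 1.03, edgeR adjusted p = 0.727). Dll4, the Notch ligand of tip cells, was at 30.5, 25.7, 31.0, 15.6 and 27.0 CPM, against 9.27 to 47.0 CPM (-0.15 ± 0.360 as log2 fold change, edgeR adjusted p = 0.956). All 3 genes overlapped the control range, and their 95% intervals, which for Dll4 ran from -0.85 to 0.56, lay above the -1.86 of Aplnr.

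Apln, the ligand of the receptor that fell, ranged widely within the treated group. It was at 14.6, 21.6, 42.7, 35.8 and 3.65 CPM in MK801 libraries 1 to 5, against 18.85 to 42.3 CPM in B6 controls around a median of 25.4. Library 5 was the lowest of all 16 and library 3 was above every B6 control. The log2 fold change was -0.14 ± 0.421 (edgeR adjusted p = 0.965). Aplnr was low in both of these libraries, at 11.3 and 11.5 CPM.

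**Figure D3:**
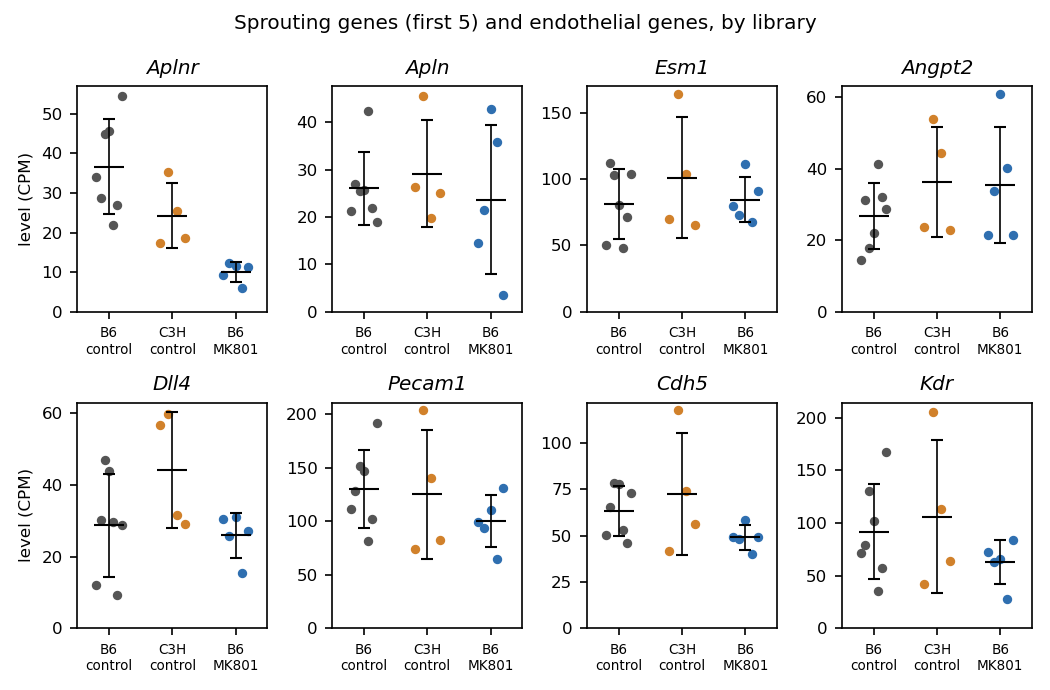
Levels in CPM of the 5 sprouting genes and of Pecam1, Cdh5 and Kdr, with a point for each library and bars for the mean ± SD of each group. For Aplnr the 5 MK801 libraries, between 6.05 and 12.2 CPM, lie below all 7 B6 controls, whereas for the other 7 genes the groups overlap.

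VEGF receptors after MK801 were, as log2 fold changes, -0.55 ± 0.412 for Kdr, 0.07 ± 0.344 for Flt1, -0.53 ± 0.334 for Flt4, -0.35 ± 0.336 for Nrp1 and -0.39 ± 0.321 for Nrp2, with edgeR adjusted p-values of at least 0.612. Kdr was at 72.05, 63.4, 65.8, 28.0 and 83.7 CPM, and library 4 was lower than any B6 control. Among the ligands Vegfb gave -0.41, Vegfc -0.97 and Pgf -0.43, with an edgeR adjusted p of at least 0.494. The Vegfc value rests on B6 control 1 at 13.8 CPM, since the treated libraries lay between 1.93 and 2.71 CPM and the B6 median was 2.04 CPM. Notch4 gave -0.44 ± 0.847.

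**Figure D4:**
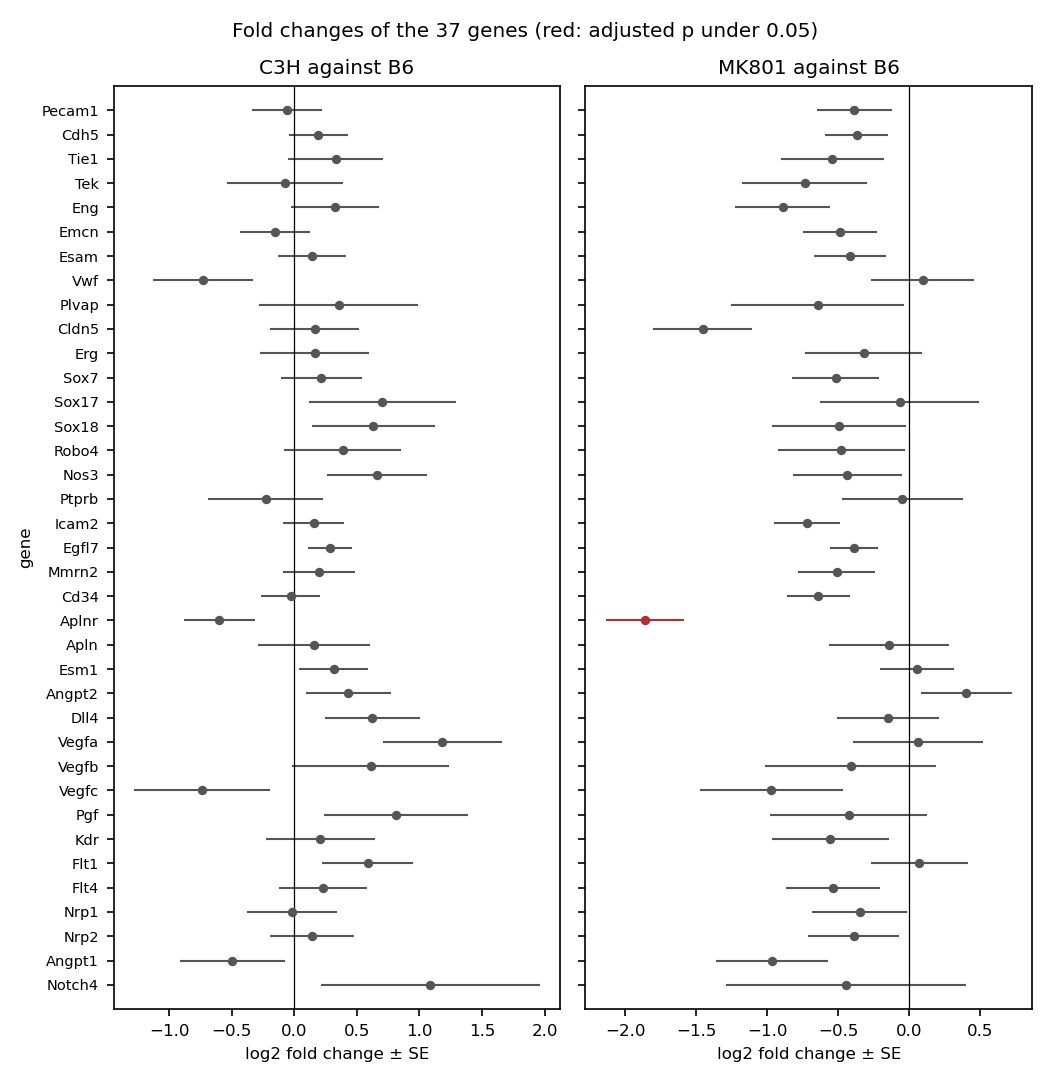
Log2 fold changes with standard errors of the 37 genes for C3H against B6 controls and for MK801 against B6 controls, with red marking an adjusted p under 0.05. Aplnr after MK801, at -1.86, is the only red point, and 32 of the 37 MK801 values lie below 0.

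To set angiogenic genes against the amount of endothelial RNA, the mean log2 CPM of the 21 pan-endothelial genes was taken in each library. This pan-endothelial level was 3.66, 4.18, 4.43, 4.48, 4.31, 3.10 and 4.25 in B6 controls 1 to 7, with a mean of 4.06 ± 0.503 (SD, n = 7). It was 4.18, 4.80, 4.17 and 4.05 in the C3H controls, with a mean of 4.30 ± 0.340 (SD, n = 4). After MK801 it was 3.83, 3.44, 3.64, 3.40 and 4.01, with a mean of 3.66 ± 0.260 (SD, n = 5). All 5 treated libraries stood below the 5 higher B6 controls and above B6 control 6, and libraries 1 and 5 also stood above B6 control 1. The group mean after MK801 was lower by less than 1 SD of the B6 controls, a difference of -0.39.

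The mean of the 5 sprouting genes minus the pan-endothelial level averaged 1.02 in the 7 B6 controls (SD 0.285), 0.97 in the 4 C3H controls (SD 0.148) and 1.04 in the 5 MK801 libraries (SD 0.581). The group means thus differed by -0.05 for C3H and 0.02 for MK801, both smaller than the spread within any group. With medians over the genes in place of means the differences were -0.49 for C3H and 0.06 for MK801. MK801 library 5 stood at 0.20 and the other 4 treated libraries between 0.72 and 1.68, and without library 5 the MK801 difference was 0.23. The mean hides members that departed in opposite directions. Relative to the pan-endothelial level, Esm1 averaged 2.22 in B6 controls and 2.72 after MK801, Angpt2 0.61 and 1.37, and Dll4 0.58 and 0.99, all on the log2 scale, with SDs between 0.271 and 0.829 in the 2 groups.

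Aplnr relative to the pan-endothelial level was 1.43, 0.66, 1.06, 1.03, 0.15, 1.66 and 1.52 in B6 controls 1 to 7. It was -0.61, 0.18, -0.11, -0.79 and -0.51 in MK801 libraries 1 to 5, and -0.07, 0.34, 0.51 and 0.18 in the C3H controls. MK801 library 2 lay just above B6 control 5, and the other 4 treated libraries lay below every B6 control. The difference of means was -1.44 for MK801 and -0.83 for C3H on the log2 scale. With the pan-endothelial level as a covariate in the fit across all genes, the Aplnr log2 fold change after MK801 was -1.63 ± 0.259 (SE), with an edgeR adjusted p of 0.0306, and that of C3H was -0.76 ± 0.267, with an adjusted p of 0.221. In the same fit none of the other 15 genes outside the pan-endothelial list passed the threshold after MK801, where Dll4 gave 0.63 ± 0.230 (edgeR adjusted p = 0.278) and Angpt1 -1.08 ± 0.416 (edgeR adjusted p = 0.317).

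**Figure D5:**
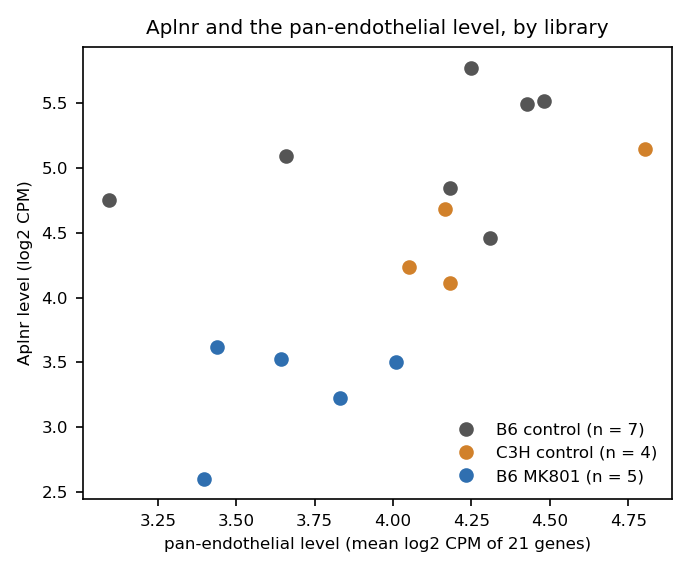
Aplnr (log2 CPM, vertical axis) against the pan-endothelial level (mean log2 CPM of 21 genes, horizontal axis), with a point for each of the 16 libraries coloured by group. Aplnr minus the pan-endothelial level lies between 0.15 and 1.66 in the B6 controls, between -0.07 and 0.51 in the C3H controls and between -0.79 and 0.18 in the MK801 libraries.

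Lists of other vessel genes, none among the 37, were read in the same fit, and their counts after MK801 stand against 8.5% of all genes lower at an unadjusted p under 0.05, 3.34% called lower by DESeq2 and 0.504% by limma-voom. Of 19 further endothelial genes 17 were below 0 after MK801, with a median log2 fold change of -0.33 and 0 called by edgeR, where 3 had an unadjusted p under 0.05 (3 to 8 with a library left out) and DESeq2 called Ecscr. Ecscr, an endothelial surface protein, was at 9.04, 8.13, 12.9, 6.96 and 8.28 CPM after MK801 against 13.0 to 19.8 CPM in B6 controls, without overlap (log2 fold change -0.74 ± 0.202, edgeR adjusted p = 0.104). Lyl1, a transcription factor of endothelium and blood, gave -1.15 ± 0.403 (edgeR adjusted p = 0.215). All 14 of the further tip cell and vessel basement membrane genes were below 0, with a median of -0.56, 3 at an unadjusted p under 0.05 (0 without MK801 library 5 and 0 to 4 with any library left out) and 0 called by edgeR, DESeq2 or limma-voom, led by the laminin Lama4 (-0.80, edgeR adjusted p = 0.31) and the semaphorin receptor Plxnd1 (-0.93, edgeR adjusted p = 0.381). Of 13 Notch and arteriovenous genes 11 were below 0, with a median of -0.22, 0 at an unadjusted p under 0.05 and 0 called by any of these tools, and the smallest p-values were those of the gap junction gene Gja4 (-0.41) and the Notch ligand Jag1 (-0.41).

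Of 11 genes of the BMP9 and ALK1 pathway 9 were below 0 after MK801, 6 of them at an unadjusted p under 0.05, against 8.5% of all genes, and 0 were called by edgeR, DESeq2 or limma-voom. This count rested on B6 control 1, the library with the lowest sum of beta cell markers, and without that library it was 1 of 11. The part of its cell content in these levels was not tested. Tmem100, a target of ALK1 signalling, gave -2.64 ± 0.985 (edgeR adjusted p = 0.254), and Id2, an inhibitor of basic helix-loop-helix factors, gave -1.45 ± 0.555 (edgeR adjusted p = 0.272). Tmem100 was at 14.5 CPM in B6 control 1 and between 0.341 and 2.49 CPM in the remaining 6, and Id2 at 239.2 CPM against 20.4 to 66.2 CPM. Id1 and Id3, of the same family as Id2, were likewise at 56.6 and 117.6 CPM in B6 control 1, and at most 10.6 and 23.9 CPM in the others. Without B6 control 1 the MK801 values were -1.07 for Tmem100 (edgeR adjusted p = 0.596), -0.67 for Id2 (0.519), -0.30 for Id1 and -0.31 for Id3. In the C3H comparison, which shares the B6 controls, Tmem100 gave -2.10 and Id2 -1.46, not called, and without B6 control 1 they gave -0.53 and -0.68. Of 14 genes of the hypoxia pathway upstream of VEGF, 0 were called after MK801 by the same 3 tools, and the median was -0.11. At an unadjusted p under 0.05, 2 of them were lower, against 8.5% of all genes, and 1 was higher, against 3.5%. The glucose transporter Slc2a1 gave -0.71 (edgeR adjusted p = 0.261) and Vhl 0.24 (edgeR adjusted p = 0.316). In C3H controls Egln3, an oxygen-sensing hydroxylase of HIF, fell, at 0.988, 5.54, 2.41 and 2.07 CPM against 3.08 to 15.1 CPM in B6 controls (log2 fold change -2.02 ± 0.459, edgeR adjusted p = 0.0279). DESeq2 and limma-voom also called Egln3 lower. The edgeR call was lost without any one of B6 control 4 and C3H controls 1, 3 and 4 (adjusted p = 0.0502 to 0.112) and with the 2 groups alone (0.095). Vegfa, which HIF drives, was not called in that comparison. Of 8 angiogenesis inhibitors tested (9 listed), 0 were called by edgeR in either comparison, and after MK801 7 were below 0 and 3 had an unadjusted p under 0.05, against 8.5% of all genes. They were led by Serpinf1 (PEDF), at -2.17 ± 0.552 (edgeR adjusted p = 0.0875), and the thrombospondin Thbs2, at -1.92 ± 0.523 (edgeR adjusted p = 0.104), both of which DESeq2 called (3.34% of all genes). In C3H controls the smallest p was that of Sema3a, a repellent ligand of NRP1, at -2.54 ± 0.834 (edgeR adjusted p = 0.151), called by DESeq2, and the next was that of the vasohibin Vash1, at 0.83. Sema3a was at 50.4 CPM in B6 control 1 and between 3.77 and 16.9 CPM in the other B6 controls. Its C3H libraries, at 0.456 to 4.39 CPM, overlapped them.

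For C3H controls edgeR, DESeq2 and limma-voom called 0 genes of the further endothelial, tip cell, Notch and BMP9 lists, and 1 gene, Id2, had an unadjusted p under 0.05, against 13.8% of all genes, and its unadjusted p was 0.0903 without B6 control 1. The median log2 fold change was 0.03 over the 19 further endothelial genes, where Rasip1 gave -0.56 and Clec14a 0.47. It was 0.19 over the tip cell list, where the netrin receptor Unc5b gave 0.87 and the potassium channel subunit Kcne3 -0.48, and 0.31 over the Notch list, where the Notch target Hey1 gave 0.44 and the venous receptor Ephb4 0.63.

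Markers of other cells moved with the MK801 comparison and are given beside it, against the same shares of all genes (8.5% lower at an unadjusted p under 0.05, 3.34% called lower by DESeq2 and 0.504% by limma-voom). All 7 fibroblast markers were below 0, with a median log2 fold change of -1.50, and 7 of 7 had an unadjusted p under 0.05, with 0 called by edgeR, 0 by limma-voom and 5 by DESeq2. Their summed level was 93.9 to 331.6 CPM after MK801 against 357.9 to 860.5 CPM in B6 controls, without overlap. Dpt (-2.32, edgeR adjusted p = 0.0602) and the collagen gene Col1a2 (-1.38, edgeR adjusted p = 0.0974) had the smallest p, and without B6 control 5 Dpt was called (0.0444). All 8 macrophage markers were below 0 (median -0.64), 7 at an unadjusted p under 0.05, with 0 called by edgeR, 2 by limma-voom and 4 by DESeq2, and they summed to 637.4 to 940.8 CPM against 966.0 to 1668 CPM, again without overlap. The complement genes C1qb (-0.71, edgeR adjusted p = 0.0533) and C1qa (-0.76, 0.0534) had the smallest p, and both were called without B6 control 2 or without MK801 library 5. T and NK cell markers had a median of -1.88, with 7 of 7 below 0, 6 at an unadjusted p under 0.05, 0 called by edgeR, 2 by limma-voom and 5 by DESeq2, led by the T cell receptor chains Cd3d (-1.67, edgeR adjusted p = 0.0624) and Cd3g (-2.27, 0.109), and 5 were called without MK801 library 5 and 1 without B6 control 2. Their sums overlapped, at 7.095 to 30.1 CPM after MK801 against 11.9 to 30.04 CPM in B6 controls. MK801 library 5 held the highest sum of all libraries. Mural cell markers, for the pericytes and smooth muscle of vessels, had a median of -0.34, with 7 of 10 below 0, 2 at an unadjusted p under 0.05 and 0 called by the 3 tools, and summed to 397.0 to 566.1 CPM after MK801 against 390.6 to 1038 CPM in B6 controls, led by Pdgfrb (-0.72) and Cspg4 (-1.05). Platelet, red cell, acinar and ductal markers had medians of -0.93, -0.56, -0.93 and -1.38, and beta cell markers a median of -0.02, with 0 called in any of these by the 3 tools and 2, 0, 0, 4 and 0 lower at an unadjusted p under 0.05. The smallest p in these lists were those of Pf4 (-1.31) and Ppbp (-1.21), Hbb-b1 (-0.84) and Hba-a1 (-0.68), Cel (-1.14) and Pnlip (-1.13), Krt19 (-1.73) and Muc1 (-1.45), and Ins1 (-0.75) and Ucn3 (-0.85), with edgeR adjusted p of at least 0.233. In each of these lists the sums of the MK801 and B6 control libraries overlapped. Ductal markers summed to 257.9 to 937.6 CPM after MK801 (mean 471.6) against 250.2 to 571.4 CPM in B6 controls (mean 435.5). Among 5 lymphatic endothelial markers only Reln, which neurons and other cells also make, rose, at 38.2, 39.7, 37.1, 24.8 and 64.7 CPM against 2.99 to 20.8 CPM (2.30 ± 0.430 as log2 fold change, edgeR adjusted p = 0.0281). DESeq2 and limma-voom also called Reln higher. The edgeR call of Reln was lost with the replicate block (0.14), with the 2 groups alone (0.058), and without any one of B6 controls 3 and 7 and MK801 libraries 2, 3 and 4 (0.0513 to 0.0814). Pdpn, which fibroblasts also carry, was at 2.77, 3.34, 1.29, 1.92 and 0.940 CPM after MK801 against 2.655 to 15.4 CPM (-2.04 ± 0.520 as log2 fold change, edgeR adjusted p = 0.0883), and DESeq2 called it lower. Prox1 and Lyve1 gave 0.38 and 0.50, and the chemokine Ccl21a gave -2.82 ± 1.37 (edgeR adjusted p = 0.443), not called by the 3 tools. The part of these other cells in the lower levels of Cldn5, Cd34, Aplnr and the pan-endothelial genes was not tested.

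In the C3H comparison 0 of the mural, fibroblast, lymphatic, macrophage, T and NK, red cell, acinar, ductal and beta cell markers were called by edgeR, and at an unadjusted p under 0.05 there were 1 lymphatic, 4 macrophage, 2 T and NK and 1 beta cell marker, against 13.8% of all genes, of which DESeq2 called Reln, a lymphatic marker. Without B6 control 1 edgeR also called Reln (adjusted p = 0.0173), and without C3H control 3 there was 1 lower macrophage marker at that p in place of 4. Of 5 platelet markers Ppbp fell, at 0.228, 0.449, 0.117 and 0.194 CPM against 0.364 to 4.69 CPM in B6 controls (log2 fold change -2.83 ± 0.670, edgeR adjusted p = 0.0356), a call that DESeq2 shared and limma-voom did not. The Ppbp call was lost with the replicate block (0.0678), with the 2 groups alone (0.0848), and without any one of B6 controls 1 and 4, the 4 C3H controls and MK801 library 1 (0.0508 to 0.135). Pf4 gave -1.64 ± 0.535 (edgeR adjusted p = 0.15) and was called lower by DESeq2, and these 2 of the 5 platelet markers had an unadjusted p under 0.05. Mural markers summed to 242.9 to 791.8 CPM in C3H controls and lymphatic markers to 58.3 to 193.0 CPM, both overlapping B6 controls.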

How the data were processed

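PolyA RNA of tumours was sequenced after library preparation by Illumina TruSeq, per the labels' protocols. Build mm9, RSEM 1.2.12 and Bowtie 1.0.1 are named, without their roles, in the submitters' processing notes, and the annotation and the use of strand are not given in the sources used, so reads of overlapping genes were not separated. The authors deposited RSEM's estimated counts for each gene and a normalized signal table that holds the same counts over a factor per library. Of the columns, 0 belonged to no sample. Among the gene symbols, 25 had turned into dates and are not named.

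Estimated counts were rounded and tested in R 4.3.3 with edgeR 4.0.16: filterByExpr kept 16084 of 23224 genes, libraries were scaled by TMM, and a quasi-likelihood fit held all 16 libraries in 3 groups. Benjamini-Hochberg adjustment ran over every gene tested and the threshold was 0.05. Standard errors were obtained by dividing the log2 fold change by the square root of F. CPM are counts per 1000000 of the TMM-scaled library, with a prior count of 2 for log2 CPM. Genes were not compared as a list by any test. The 37 genes and all other lists were chosen with earlier results of these data known. Every one of the 37 is named with its values, and of other lists the genes past the threshold or, failing that, the 2 with the smallest p; marker lists in the C3H comparison are given by counts. DESeq2 1.42.0, limma 3.58.1, other scalings, filters and covariates, a replicate block, and leaving out each library were alternatives. Leaving out the 3 libraries of steepest GC trend, and reading the other lists with each library left out, were added after seeing the data.

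Transcript length and GC content were those of a symbol's longest transcript in GENCODE M21 (GRCm38, not the build of the files), found for 98.5% of genes tested and all 37 here. Replicates differed by more than sampling noise (a chi-square of 121.7 or more per degree of freedom), so none was taken as a repeat deposit. The test was also run on simulated counts with known changes. These were drawn gene by gene, without the base-composition trends or cell-content differences of the real libraries. The run therefore cannot speak to false calls that such differences may bring. Library totals were 38561334 to 57013815 counts, and counting error is a smaller part of the spread where a gene has more of them.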

Additional observations from a re-analysis of the deposited data

Results flagged for a closer look

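In 12 of 120 sets of libraries examined, a library stood far from the rest of its group by Dixon's ratio. The nominal rate of that rule, about 1 in 20, holds for independent and normally distributed values. Most sets hold unlogged CPM and all share the same 16 libraries, so no excess over that rate is claimed. B6 control 5 was the high library for Plvap at 167.0 CPM (others 5.546 to 66.3 CPM), Sox17 at 1.91 CPM (others 0.148 to 0.796 CPM), Apln at 42.3 CPM (others 18.85 to 27.0 CPM), Vegfb at 55.1 CPM (others 3.87 to 16.65 CPM) and Notch4 at 20.8 CPM (others 0.789 to 4.46 CPM). This library also had the steepest positive GC trend, 0.589, and its part in these levels was not tested. B6 control 6 was low for Esam at 18.1 CPM (others 41.5 to 54.9 CPM) and high for the sprouting genes minus the pan-endothelial level, at 1.62 on the log2 scale (others 0.81 to 1.08).

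Cd34 in B6 control 7 was at 150.7 CPM (others 64.3 to 100.8 CPM). Vegfc in B6 control 1 was at 13.8 CPM (others 1.69 to 5.36 CPM). Pgf in C3H control 1 was at 64.4 CPM (others 7.35 to 14.8 CPM), and Flt4 in C3H control 2 was at 15.1 CPM (others 7.81 to 8.86 CPM). Egfl7 in MK801 library 5 was at 35.7 CPM (others 27.1 to 28.7 CPM).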

How the results depend on the processing

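The replicate numbers were not taken to pair the groups compared: same-numbered libraries of a test group and the B6 controls correlated between -0.312 and 0.114 over 9 pairs, and 0 of 9 test libraries correlated best with the B6 control of the same number. The 4 pairs of C3H and MK801, groups not compared with each other, correlated between 0.137 and 0.37. With the replicate block, 0 of the 37 genes were called after MK801, Aplnr giving -1.81 (adjusted p = 0.0781), and over all genes 0 were called lower and 1 higher, where the fit without it gave 76 and 24. The Aplnr log2 fold change kept its sign and its call in the other 30 alternatives, between -2.04 and -1.63. The number of the 37 genes called after MK801 was 3 with DESeq2 (Aplnr, Cldn5 and Icam2), 2 with the GC trend as a covariate (Aplnr and Cldn5), 2 at a threshold of 0.1, and 1 to 2 with a library left out. Between 27 and 35 of the 37 genes were below 0 after MK801 in the alternatives, and between 5 and 20 in the C3H comparison, where 0 were called throughout. Taking medians over genes in place of means, the sprouting genes minus the pan-endothelial level differed by -0.49 between C3H and B6, against -0.05. Counts over all genes moved more: MK801 lower calls were 536 with DESeq2, 266 with the GC covariate, 3 with the 2 groups alone, 4 without the 3 libraries of steepest GC trend, and between 2 and 165 with a library left out. C3H calls were 533 lower and 261 higher with DESeq2 and 97 and 65 with the block, against 386 in all. The causes were not tested. With 7, 4 and 5 libraries, changes well under that of Aplnr can be missed.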
